A study of Mus musculus with 4 samples.

Results

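The genes described here encode the enzymes that place and remove methyl and acetyl groups on histones, measured as RNA in cultured mouse B cells. The rule that selects them reads gene symbols and no measured value, though it was set with earlier results of these data known. Every gene whose symbol begins with Kdm1 to Kdm8, Kmt2 or Kmt5, Setd, Hdac, Sirt, Kat2 to Kat8, Ezh, Ehmt, Nsd or Prmt was taken, except Kdm5c and Kdm5d, which gave 73 of the 13792 genes listed. Of these 73, 71 are enzymes of the histone-modifying families. The other two fit the symbol rule only: Nsdhl encodes an enzyme of sterol synthesis, and Kdm6bos is by its symbol a transcript from the strand opposite Kdm6b.

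Naive B cells were taken from C57BL/6 mice, a widely used inbred line, given a retrovirus, and kept in culture with antibodies to IgM and CD40, receptors that respond to antigen and to helper T cells. The RVKM-Ascl2 library came from cells given the virus that carries Ascl2, a basic helix-loop-helix transcription factor, and the RVKM-Empty library from cells given the same virus without an insert. The age and sex of the mice and any purification of infected cells before RNA extraction are not stated in the labels. Each group was 1 library, so no value has a replicate error, no difference has a replicate check and no p-value was computed. The series also holds chromatin samples of germinal centre B cells, an Ascl2 immunoprecipitation and its input, which were not analysed here.

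Each library gave 1 abundance per gene, with a sum over all genes of 763932 in RVKM-Ascl2 and 750692 in RVKM-Empty. Whether the abundance is scaled for depth and gene length was not tested, and comparisons between genes assume scaling for length. The unit of the abundance is not named in the labels or headers, and since depth is unknown, counting intervals could not be computed. Ascl2 itself was 29.4 in the RVKM-Ascl2 library and 0.0809 in the RVKM-Empty library, the direction the labels give. The B cell markers Ms4a1, Cd79a, Cd79b and Pax5 lay between 97.7 and 626 in RVKM-Ascl2 and between 98.4 and 748 in RVKM-Empty. None of the T cell markers Cd3e, Cd3g, Cd4 and Cd8a had a row. Of 5 myeloid markers 4 had a row, and their summed abundance was 43.1 in RVKM-Ascl2 and 38.7 in RVKM-Empty. Of these 4, Fcer1g was 9.83 in RVKM-Ascl2 and 5.71 in RVKM-Empty, Lyz2 was 21.4 in RVKM-Ascl2 and 16.0 in RVKM-Empty, and Cd68 went the other way at 10.8 in RVKM-Ascl2 and 16.2 in RVKM-Empty. The part of such cells in the results below was not tested. Of 3 erythroid markers 2 had a row, with sums of 1.75 in RVKM-Ascl2 and 2.03 in RVKM-Empty. In bulk RNA, fewer cells of a type and less RNA per cell cannot be told apart.

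Histone lysine methylation is written by SET domain enzymes and erased by flavin-dependent amine oxidases and by oxygenases with a JmjC domain, and its effect depends on the residue. Methylation of histone H3 at lysine 4 (H3K4) marks promoters and enhancers, that at lysine 36 (H3K36) marks transcribed gene bodies, and that at lysines 9 and 27 (H3K9, H3K27) marks silenced chromatin. Acetyl groups go with open chromatin and are added by lysine acetyltransferases and removed by zinc-dependent deacetylases and by the NAD-dependent sirtuins. In B cells the H3K27 methyltransferase Ezh2 is known as a gene of the germinal centre, where it is needed for the reaction.

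As a group these genes had close to the same abundance in both libraries. Their summed abundance was 1845 in RVKM-Ascl2 and 1906 in RVKM-Empty, which is 0.242% and 0.254% of each library's total. Differences are given as log2 ratios, the log2 of the RVKM-Ascl2 value plus 1 over the RVKM-Empty value plus 1, which understates the difference of low genes. Of the 73 genes, 71 had a value of 1 or more in either library and were kept. Kdm4d and Kdm6bos were not. The median log2 ratio over the 71 was −0.0049, against −0.012 over all 12283 genes kept by the same rule. The sign of a median this small flips with the scaling of the libraries and is not read as a direction. Among the 71, 35 ratios were above 0 and 36 below, and the 25th and 75th percentiles were −0.21 and 0.14, against −0.22 and 0.19 for all kept genes.

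Single genes past a fixed fold were few. At 2-fold, 1 of 71 was higher in RVKM-Ascl2, where 1.53% of all kept genes were, and none was lower, where 0.716% of all kept genes were. At 1.5-fold, 1 was higher, beside 5.01% of all kept genes, and 2 were lower, beside 4.31%. These shares are near or under those of all genes. The higher gene was Kdm4c. The lower genes were Setd4 and Kdm8, both low in abundance. The other 68 lay within 1.5-fold.

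**Figure D1:**
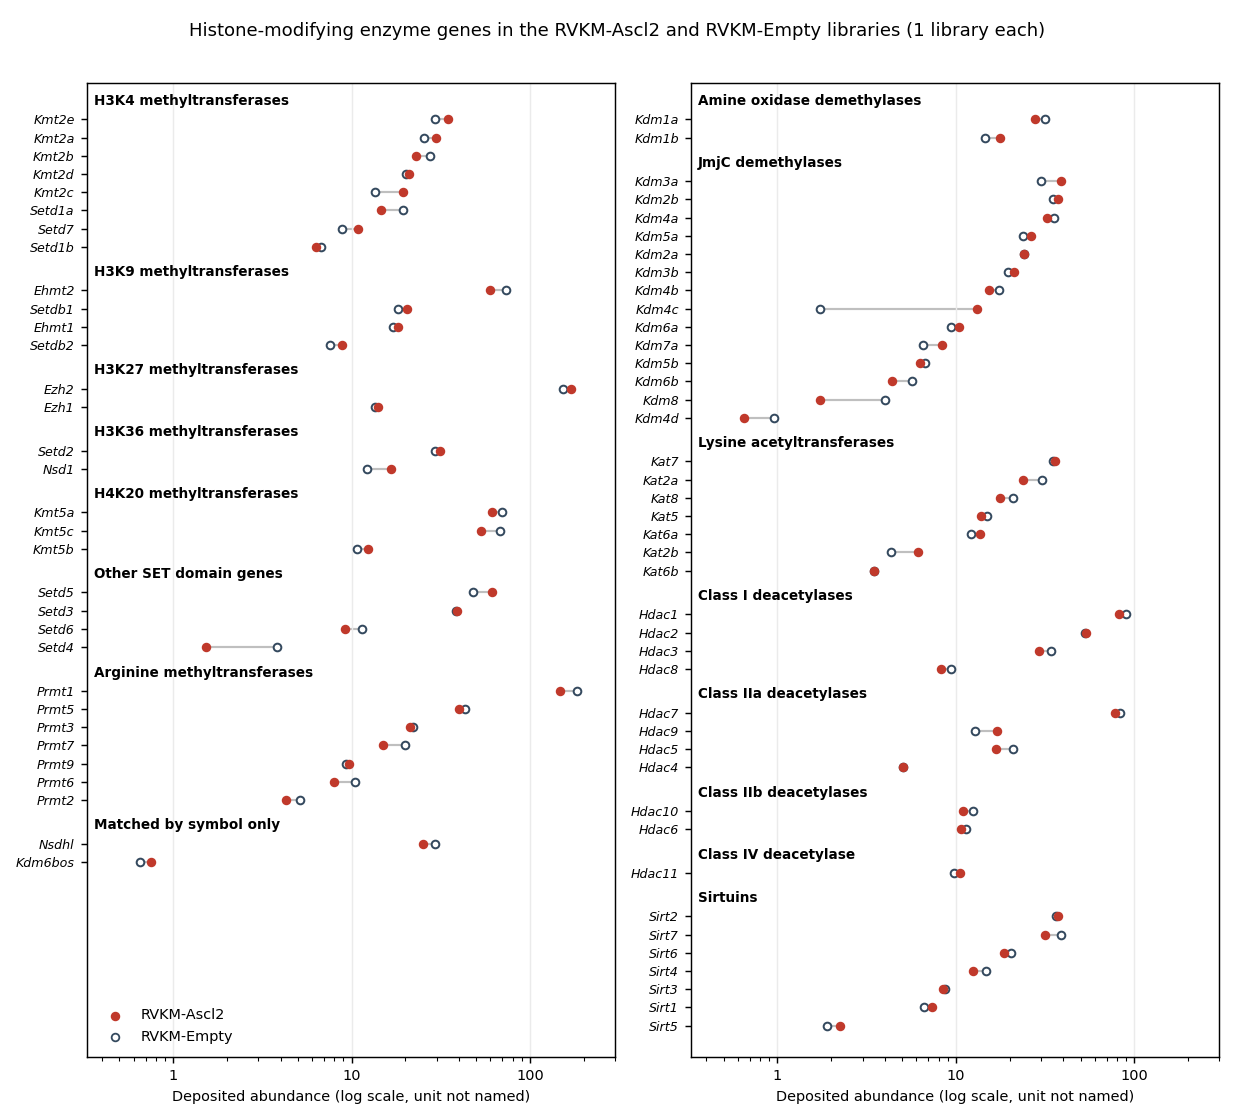
Abundance of each of the 73 genes on a log axis, grouped by enzyme class, with a filled point for the RVKM-Ascl2 library and an open point for the RVKM-Empty library (1 library each, no error bars). Most pairs of points nearly touch, while Kdm4c stands at 13.2 in RVKM-Ascl2 and 1.73 in RVKM-Empty.

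Kdm4c (ENSMUSG00000028397, chromosome 4, 74242497 to 74405864, mouse build GRCm38) encodes a JmjC demethylase of trimethylated H3K9 and H3K36. Its abundance was 13.2 in RVKM-Ascl2 and 1.73 in RVKM-Empty, a log2 ratio of 2.38, and the plain ratio of the values was 7.62. It ranked 17 from the top among the 12283 kept genes. With a pseudocount of 0.1 the log2 ratio was 2.86 and with 5 it was 1.43, so it stayed past 2-fold. The values of 7 genes in the files carry more than 6 significant digits, and Kdm4c is not one of them.

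The other genes of its family did not share this difference. Kdm4a, which acts on the same residues, was 32.4 in RVKM-Ascl2 and 35.7 in RVKM-Empty. Kdm4b was 15.3 in RVKM-Ascl2 and 17.5 in RVKM-Empty, and Kdm4d was 0.652 in RVKM-Ascl2 and 0.952 in RVKM-Empty. In RVKM-Empty, Kdm4c was thus far below Kdm4a and Kdm4b on the abundance scale, and in RVKM-Ascl2 it was close to Kdm4b. The sum over the 4 genes was 61.5 in RVKM-Ascl2 and 55.8 in RVKM-Empty. The nearest listed genes on chromosome 4 had log2 ratios between −0.20 and 0.22. Tle1, before Kdm4c and ending at 72200989, was 8.01 in RVKM-Ascl2 and 9.33 in RVKM-Empty. Tmem261, after Kdm4c and starting at 75277351, was 43.4 in RVKM-Ascl2 and 43.2 in RVKM-Empty.

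**Figure D2:**
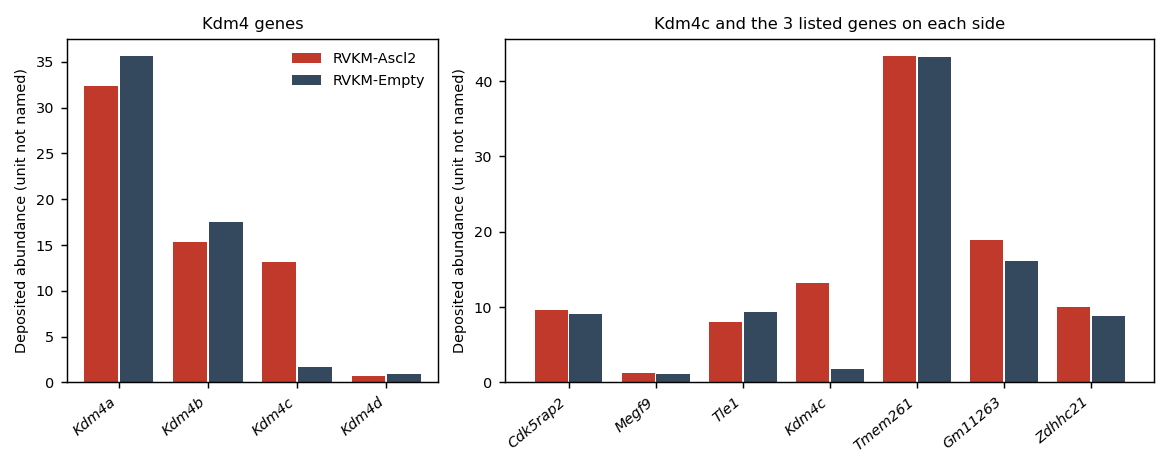
Abundance of the 4 Kdm4 genes (left) and of Kdm4c with the 3 listed genes on each side of it along chromosome 4 (right), with the RVKM-Ascl2 bar left of the RVKM-Empty bar (1 library each). Kdm4c is the one gene shown whose bars differ several-fold, at 13.2 and 1.73.

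Setd4 (ENSMUSG00000022948, chromosome 16, 93583457 to 93604791) encodes a SET domain lysine methyltransferase. It was 1.52 in RVKM-Ascl2 and 3.83 in RVKM-Empty, a log2 ratio of −0.94. Kdm8 (ENSMUSG00000030752, chromosome 7, 125444620 to 125463651) encodes a JmjC oxygenase whose histone demethylase activity is disputed. It was 1.72 in RVKM-Ascl2 and 3.99 in RVKM-Empty, a log2 ratio of −0.88. Both stayed short of 2-fold with a pseudocount of 1 and passed it with 0.1, at −1.28 for Setd4 and −1.17 for Kdm8. With a pseudocount of 5 both were within 1.5-fold, at −0.44 and −0.42, so the call on these low genes depends on the pseudocount. The nearest listed gene before Setd4 on chromosome 16 is the transcription factor gene Runx1, which ends at 92826074. Runx1 was 8.75 in RVKM-Ascl2 and 20.9 in RVKM-Empty (log2 ratio −1.16), while the other listed neighbours of Setd4 lay between −0.43 and 0.033. The neighbours of Kdm8 lay between −0.42 and 0.033.

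Proteins of the Ascl2 family bind DNA at E-boxes, the sequence CANNTG, and are known to favour the form CAGCTG. The 250 bases before start sites of Kdm4c, Kdm8 and Setd4 in the promoter table are shown because these genes differed most. Sequences are from RefSeq on GRCm38.p6, 5′ to 3′ on the strand of the gene, with each CANNTG in capitals. Kdm4c has 2 annotated starts, 9.38 kb apart. The windows are chr4:74242247-74242496 (plus strand) and chr4:74251629-74251878 (plus strand) for Kdm4c, chr7:125444370-125444619 (plus strand) for Kdm8 and chr16:93603816-93604065 (minus strand) for Setd4. The Setd4 window lies within the annotated span of the gene, which ends at 93604791, so the bases before the outermost start of Setd4 are not shown.
Kdm4c, upstream start: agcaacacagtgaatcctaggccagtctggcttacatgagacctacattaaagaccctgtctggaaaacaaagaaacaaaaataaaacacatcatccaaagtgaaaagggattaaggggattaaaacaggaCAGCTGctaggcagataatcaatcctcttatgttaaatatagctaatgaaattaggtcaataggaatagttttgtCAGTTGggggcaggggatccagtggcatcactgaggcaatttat
Kdm4c, downstream start: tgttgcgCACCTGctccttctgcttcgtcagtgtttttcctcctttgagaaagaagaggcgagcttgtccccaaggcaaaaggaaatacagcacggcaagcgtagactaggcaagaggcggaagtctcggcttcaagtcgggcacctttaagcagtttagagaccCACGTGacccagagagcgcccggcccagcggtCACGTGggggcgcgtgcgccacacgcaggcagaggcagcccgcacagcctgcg
Kdm8: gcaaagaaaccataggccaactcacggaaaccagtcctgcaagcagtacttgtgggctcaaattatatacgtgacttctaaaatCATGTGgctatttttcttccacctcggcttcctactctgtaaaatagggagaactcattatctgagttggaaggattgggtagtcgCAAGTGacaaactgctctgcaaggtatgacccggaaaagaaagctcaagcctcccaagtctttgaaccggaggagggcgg
Setd4: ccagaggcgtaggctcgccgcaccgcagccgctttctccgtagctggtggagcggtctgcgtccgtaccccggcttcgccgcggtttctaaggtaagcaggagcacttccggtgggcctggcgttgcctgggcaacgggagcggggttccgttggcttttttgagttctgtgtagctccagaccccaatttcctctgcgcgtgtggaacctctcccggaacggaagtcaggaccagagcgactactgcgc
The upstream Kdm4c window held CAGCTG and CAGTTG, and the downstream one held CACCTG and CACGTG, the last at 2 places. The Kdm8 window held CATGTG and CAAGTG, and the Setd4 window held no CANNTG. The CANNTG pattern reads the same on both strands, and CAGCTG and CACGTG are cases of it. Of all 32851 windows of this length, 66.2% held CANNTG, 13.0% CAGCTG and 6.02% CACGTG. Promoter sequences were at hand for 59 of the 73 genes, and of their 80 windows 55.0% held CANNTG, 12.5% CAGCTG and 8 windows CACGTG. A match describes the letters and does not show binding.

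All SET domain genes are counted here as lysine methyltransferases, including Setd3 and Kmt2e, whose different roles are given below. At 1.5-fold none was higher in RVKM-Ascl2, beside 5.01% of all kept genes, and 1 (Setd4) was lower, beside 4.31%. Of 23 genes, 15 had a log2 ratio above 0, and the median was 0.09. It was 0.18 when the libraries were scaled to the same sum without immunoglobulin genes and Pcdh15, and 0.023 with the trend over gene span removed. This median stayed above 0 in all alternatives, but its size depended on the processing, and no direction is read for the class. For scale, 48.4% of all kept genes had a ratio above 0 before rescaling, which raised the RVKM-Ascl2 value of every gene by the same factor.

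Among the 8 genes for H3K4 methylation the median was 0.13 and 5 ratios were above 0, but the class was not uniform. Kmt2c, which places monomethyl marks at enhancers, was 19.4 in RVKM-Ascl2 and 13.6 in RVKM-Empty (log2 ratio 0.48), the highest ratio in these 73 genes after Kdm4c. Its relative Kmt2d, often mutated in germinal centre lymphoma, was nearly level at 21.0 in RVKM-Ascl2 and 20.1 in RVKM-Empty. Kmt2a, a regulator of Hox genes, was 29.6 in RVKM-Ascl2 and 25.4 in RVKM-Empty, and Kmt2e, which is not known to methylate histones itself, was 34.7 in RVKM-Ascl2 and 29.5 in RVKM-Empty. Setd7, a monomethyltransferase that also acts on non-histone proteins, was 10.8 in RVKM-Ascl2 and 8.85 in RVKM-Empty. In the other direction, Kmt2b was 22.9 in RVKM-Ascl2 and 27.5 in RVKM-Empty. Setd1a, a main source of H3K4 trimethylation at promoters, was 14.7 in RVKM-Ascl2 and 19.3 in RVKM-Empty (log2 ratio −0.37), and Setd1b was 6.29 in RVKM-Ascl2 and 6.74 in RVKM-Empty.

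For the silencing marks, Ezh2, the catalytic subunit of Polycomb repressive complex 2 (PRC2), was the most abundant of the 73 genes in RVKM-Ascl2. It was 169 in RVKM-Ascl2 and 153 in RVKM-Empty, a log2 ratio of 0.14. Ezh1, which can replace it in PRC2, was 14.1 in RVKM-Ascl2 and 13.6 in RVKM-Empty. Ezh2 was thus far above Ezh1 in both libraries on the abundance scale, if the values are scaled for length. The H3K9 methyltransferases Ehmt2 and Ehmt1 act as a pair, and their ratios pointed apart. Ehmt2 was 59.4 in RVKM-Ascl2 and 73.1 in RVKM-Empty, and Ehmt1 was 18.1 in RVKM-Ascl2 and 17.0 in RVKM-Empty. Setdb1, which silences retroelements through H3K9 trimethylation, was 20.5 in RVKM-Ascl2 and 18.1 in RVKM-Empty, and Setdb2 was 8.83 in RVKM-Ascl2 and 7.53 in RVKM-Empty.

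For H3K36, Nsd1, a dimethyltransferase, was 16.7 in RVKM-Ascl2 and 12.2 in RVKM-Empty (log2 ratio 0.42). Setd2, the source of H3K36 trimethylation in transcribed genes, was 31.4 in RVKM-Ascl2 and 29.2 in RVKM-Empty. Of the H4K20 enzymes, Kmt5a, which places the first methyl group, was 61.1 in RVKM-Ascl2 and 69.9 in RVKM-Empty. Of those that add further groups, Kmt5c was 52.9 in RVKM-Ascl2 and 67.5 in RVKM-Empty, and Kmt5b was 12.3 in RVKM-Ascl2 and 10.8 in RVKM-Empty. The ratios of this class lay between −0.35 and 0.18. Among SET domain genes without a settled histone substrate, Setd5 was 61.0 in RVKM-Ascl2 and 48.0 in RVKM-Empty, while Setd3, a histidine methyltransferase of actin, was 39.1 in RVKM-Ascl2 and 38.5 in RVKM-Empty. Setd6, which methylates the NF-kB subunit RelA, was 9.13 in RVKM-Ascl2 and 11.4 in RVKM-Empty.

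Most of the arginine methyltransferases had lower values in RVKM-Ascl2. Of 7 genes, 6 had a ratio below 0, and 5 when the libraries were scaled to the same sum without immunoglobulin genes and Pcdh15, where Prmt3 changed sign. Over all kept genes, 48.4% had a ratio above 0 before that scaling, which raised the RVKM-Ascl2 value of every gene alike. The class median was −0.21, and between −0.25 and −0.12 in the alternatives tried. Their summed abundance was 245 in RVKM-Ascl2 and 293 in RVKM-Empty. Most of this sum was Prmt1, the main asymmetric arginine dimethyltransferase, at 146 in RVKM-Ascl2 and 183 in RVKM-Empty. Prmt5, the main symmetric one, was nearer to level at 40.2 in RVKM-Ascl2 and 43.0 in RVKM-Empty. Prmt7, a monomethyltransferase, was 15.0 in RVKM-Ascl2 and 20.03 in RVKM-Empty (log2 ratio −0.39), and Prmt6 was 7.94 in RVKM-Ascl2 and 10.4 in RVKM-Empty. Prmt3, which modifies a ribosomal protein, was 21.3 in RVKM-Ascl2 and 22.0 in RVKM-Empty, and Prmt2 was 4.28 in RVKM-Ascl2 and 5.11 in RVKM-Empty. Prmt9 alone had a ratio above 0, at 9.72 in RVKM-Ascl2 and 9.32 in RVKM-Empty. No member of the class was past 1.5-fold, where 5.01% of all kept genes were higher and 4.31% lower.

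**Figure D3:**
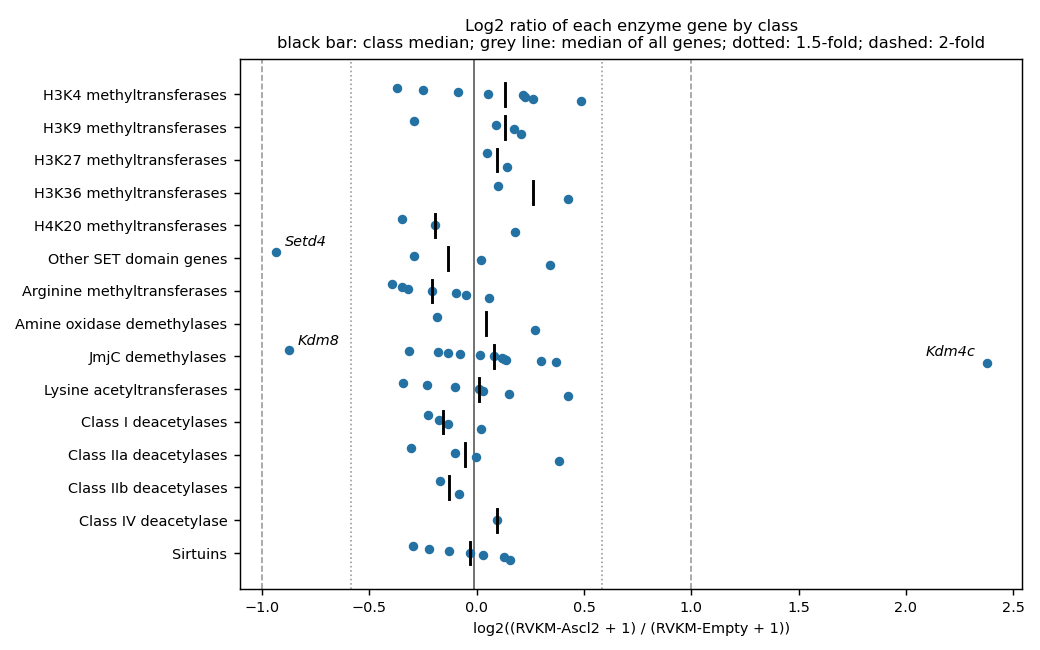
Log2 ratio of RVKM-Ascl2 over RVKM-Empty for each kept enzyme gene (points) by class, with the class median as a black bar, the median of all kept genes (−0.012) as a grey line, and 1.5-fold and 2-fold as dotted and dashed lines. Kdm4c lies at 2.38, Setd4 and Kdm8 lie at −0.94 and −0.88, and the arginine methyltransferases have a median of −0.21.

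Among the lysine demethylases other than Kdm4c and Kdm8 the differences were small. The JmjC genes summed to 241 in RVKM-Ascl2 and 221 in RVKM-Empty, and to 227 and 219 without Kdm4c. Kdm3a, an H3K9 demethylase, was 39.0 in RVKM-Ascl2 and 30.0 in RVKM-Empty (log2 ratio 0.37), and its relative Kdm3b was 21.2 in RVKM-Ascl2 and 19.5 in RVKM-Empty. Kdm7a, a demethylase of H3K9 and H3K27, was 8.34 in RVKM-Ascl2 and 6.59 in RVKM-Empty. These 3 ratios were above 0 and within 1.5-fold.

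The H3K27 demethylases Kdm6a and Kdm6b pointed apart. Kdm6a was 10.4 in RVKM-Ascl2 and 9.41 in RVKM-Empty, and Kdm6b, which is induced by inflammatory signals, was 4.39 in RVKM-Ascl2 and 5.70 in RVKM-Empty. Kdm6bos was 0.748 in RVKM-Ascl2 and 0.649 in RVKM-Empty. The labels do not state whether counting used strand, so reads of Kdm6b and Kdm6bos may not be separated. Kdm5a, an H3K4 demethylase, was 26.3 in RVKM-Ascl2 and 23.9 in RVKM-Empty, and Kdm5b was 6.33 in RVKM-Ascl2 and 6.73 in RVKM-Empty. The H3K36 demethylases were near level, with Kdm2a at 24.2 in RVKM-Ascl2 and 24.0 in RVKM-Empty and Kdm2b at 37.3 in RVKM-Ascl2 and 35.2 in RVKM-Empty. Of the amine oxidases, Kdm1a, which works with the CoREST corepressor, was 27.7 in RVKM-Ascl2 and 31.7 in RVKM-Empty, and Kdm1b was 17.8 in RVKM-Ascl2 and 14.5 in RVKM-Empty.

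The acetyltransferases had a median log2 ratio of 0.0083, with opposite signs in the close relatives Kat2a and Kat2b. Kat2a, the catalytic subunit of the SAGA complex, was 23.7 in RVKM-Ascl2 and 30.4 in RVKM-Empty (log2 ratio −0.35). Kat2b, which can take its place there, was 6.17 in RVKM-Ascl2 and 4.34 in RVKM-Empty (0.42). Kat2a remained the more abundant of the pair in both libraries. Of the MYST family, Kat7, which acts on H3 and H4 near replication origins, was 35.9 in RVKM-Ascl2 and 35.2 in RVKM-Empty. Kat6a was 13.7 in RVKM-Ascl2 and 12.2 in RVKM-Empty, and Kat6b was 3.50 in RVKM-Ascl2 and 3.47 in RVKM-Empty. Kat5, a subunit of the NuA4 complex that acts in DNA repair, was 13.8 in RVKM-Ascl2 and 14.9 in RVKM-Empty. Kat8, which acetylates H4 at lysine 16, was 17.7 in RVKM-Ascl2 and 21.0 in RVKM-Empty.

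Of the 11 zinc-dependent deacetylases 8 had a ratio below 0, where 48.4% of all kept genes had one above 0. With the libraries scaled to the same sum without immunoglobulin genes and Pcdh15, 6 were below 0. That scaling raised the RVKM-Ascl2 value of every gene by the same factor, 1.07. The share of all genes below 0 under it is not given here, and no direction is read for the class. Hdac1 and Hdac2, the paired catalytic subunits of the NuRD and Sin3 complexes, stood at 82.0 in RVKM-Ascl2 and 90.0 in RVKM-Empty for Hdac1 and at 53.8 in RVKM-Ascl2 and 53.0 in RVKM-Empty for Hdac2. Hdac3, which is activated by the NCoR corepressors, was 29.2 in RVKM-Ascl2 and 34.3 in RVKM-Empty, and Hdac8 was 8.23 in RVKM-Ascl2 and 9.44 in RVKM-Empty. In class IIa, whose members shuttle between cytoplasm and nucleus, Hdac7 was by far the most abundant, at 77.5 in RVKM-Ascl2 and 83.3 in RVKM-Empty. Hdac7 is known for holding B cell identity in progenitors. Hdac9 was 17.0 in RVKM-Ascl2 and 12.8 in RVKM-Empty (log2 ratio 0.38), Hdac5 was 16.7 in RVKM-Ascl2 and 20.9 in RVKM-Empty (−0.31), and Hdac4 was 5.03 in RVKM-Ascl2 and 5.06 in RVKM-Empty. Hdac6, a deacetylase of tubulin, was 10.7 in RVKM-Ascl2 and 11.4 in RVKM-Empty. Hdac10, which acts on polyamines, was 10.9 in RVKM-Ascl2 and 12.4 in RVKM-Empty, and Hdac11, the class IV member, was 10.5 in RVKM-Ascl2 and 9.77 in RVKM-Empty.

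The 7 sirtuins had log2 ratios between −0.30 and 0.15, with a median of −0.031. Sirt1, a nuclear deacetylase, was 7.32 in RVKM-Ascl2 and 6.61 in RVKM-Empty, and Sirt2, which is mainly cytoplasmic, was 37.4 in RVKM-Ascl2 and 36.6 in RVKM-Empty. Sirt7, a nucleolar enzyme, was 31.5 in RVKM-Ascl2 and 38.9 in RVKM-Empty, the lowest ratio of the class. Sirt6, which acts on chromatin, was 18.6 in RVKM-Ascl2 and 20.4 in RVKM-Empty. Of the mitochondrial members, Sirt3 was 8.51 in RVKM-Ascl2 and 8.72 in RVKM-Empty, Sirt4 was 12.6 in RVKM-Ascl2 and 14.8 in RVKM-Empty, and Sirt5 was 2.23 in RVKM-Ascl2 and 1.90 in RVKM-Empty. The gene matched by symbol alone, Nsdhl, was 25.2 in RVKM-Ascl2 and 29.3 in RVKM-Empty.

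The ratios of these genes were ordered by gene length. Across the 71 kept genes the log2 ratio and the genomic span from first to last annotated base had a Spearman rho of 0.63, and of 0.62 without Kdm4c. Across all 11763 kept genes with a span the rho was 0.20, and across the 8528 with at least 5 in both libraries it was 0.24. Genes are not independent replicates, and all points come from the same 2 libraries, so these are descriptions. Of the 24 genes with the shortest spans (4.90 to 22.4 kb) 21 had a ratio below 0, with a median of −0.23. Of the 24 in the middle (22.7 to 65.0 kb) 10 did, with a median of 0.039. Of the 23 longest (70.2 to 870 kb) 5 did, with a median of 0.13. All kept genes of the same spans had medians of −0.069, 0.029 and 0.063 in that order. Of those genes 40.5%, 54.5% and 60.5% had a ratio above 0, against 3 of 24, 14 of 24 and 18 of 23 members. The class IIa deacetylases had the longest median span, at 159 kb, and 3 of their 4 ratios were below 0, or 2 of 4 under either rescaling of the libraries. Within single classes the rho rests on few genes, and its differences between classes are not read. The rho was 0.86 within the 7 sirtuins, 0.79 within the 23 lysine methyltransferases and 0.75 within the 7 acetyltransferases. It was 0.45 within the 15 demethylases, 0.36 within the 7 arginine methyltransferases and 0.20 within the 11 zinc-dependent deacetylases. After the running median of all genes over span was subtracted, the rho over the 71 genes was 0.43, the median of the arginine methyltransferases was −0.19 and Kdm4c, Setd4 and Kdm8 stood at 2.30, −0.91 and −0.84. In the pairs Ehmt2 and Ehmt1, Kdm6b and Kdm6a, and Kat2a and Kat2b, the first gene had the shorter span and the lower ratio. The ratios within each pair kept opposite signs after the subtraction. RNA quality and GC content were not measured, and their part in the order by span was not tested.

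**Figure D4:**
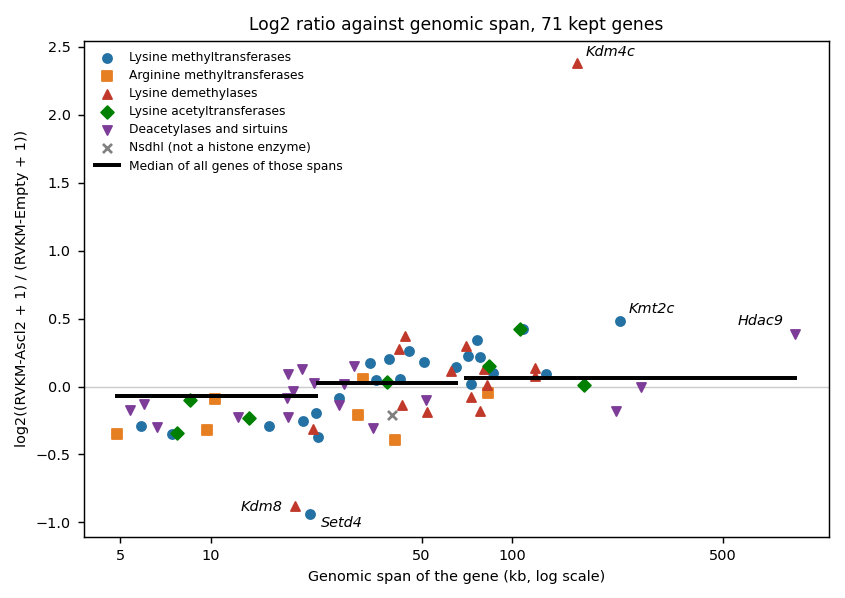
Log2 ratio of RVKM-Ascl2 over RVKM-Empty against genomic span (kb, log axis) for the 71 kept genes, with symbols by enzyme class and black lines for the median of all kept genes of the same spans. Points lie mostly below 0 among the 24 shortest genes (21 of 24) and mostly above 0 among the 23 longest (18 of 23). Of all kept genes of those spans, 40.5% and 60.5% had a ratio above 0.

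Other genes of the same pathways were taken from 7 lists of writers, partners, readers and cofactor suppliers. On the values plus 1, none of their 111 listed genes was past 1.5-fold in either direction. Of all kept genes, 5.01% were higher and 4.31% lower on the same measure. The added 1 understates the difference of low genes such as Sap18, and ratios of the plain values were not counted. The 23 further writers and erasers had a median of 0.019. Carm1, an arginine methyltransferase named outside the Prmt series, was 26.98 in RVKM-Ascl2 and 38.6 in RVKM-Empty (log2 ratio −0.50). Jmjd1c, a relative of Kdm3a, was 34.2 in RVKM-Ascl2 and 25.4 in RVKM-Empty, and Whsc1, an H3K36 dimethyltransferase like Nsd1, was 59.8 in RVKM-Ascl2 and 46.6 in RVKM-Empty. These 3 had the largest ratios of that list.

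Partner subunits had their lowest medians in 2 lists. The 21 subunits of deacetylase co-repressor complexes had a median log2 ratio of −0.25 and 16 below 0, and the 11 subunits of the H3K4 methyltransferase complexes had a median of −0.26 and 8 below 0. With the libraries scaled to the same sum without immunoglobulin genes and Pcdh15 these medians were −0.16 and −0.17, with 15 and 6 genes below 0. With the span trend removed the medians were −0.21 and −0.18, with 16 and 7 genes below 0. Over all kept genes, 48.4% had a ratio above 0 before rescaling or removal of the trend. The rescaling raised the RVKM-Ascl2 value of every gene by the same factor. Mta1, a NuRD subunit, was 49.7 in RVKM-Ascl2 and 73.2 in RVKM-Empty, Sap18 of the Sin3 complex was 2.64 in RVKM-Ascl2 and 4.29 in RVKM-Empty, and Tbl1xr1 of the NCoR complex was 10.8 in RVKM-Ascl2 and 15.6 in RVKM-Empty. Of the H3K4 complexes, Dpy30 was 33.5 in RVKM-Ascl2 and 43.8 in RVKM-Empty, Men1 was 23.6 in RVKM-Ascl2 and 30.8 in RVKM-Empty, and Paxip1 was 19.7 in RVKM-Ascl2 and 25.8 in RVKM-Empty. The 9 partners of PRC2 had a median of −0.058, with Jarid2, which recruits the complex, at 21.0 in RVKM-Ascl2 and 15.8 in RVKM-Empty and Aebp2 at 105 in RVKM-Ascl2 and 130 in RVKM-Empty. Among 26 partners of acetyltransferases (median −0.050), Tada3, a SAGA subunit beside Kat2a, was 8.73 in RVKM-Ascl2 and 13.4 in RVKM-Empty (log2 ratio −0.56).

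**Figure D5:**
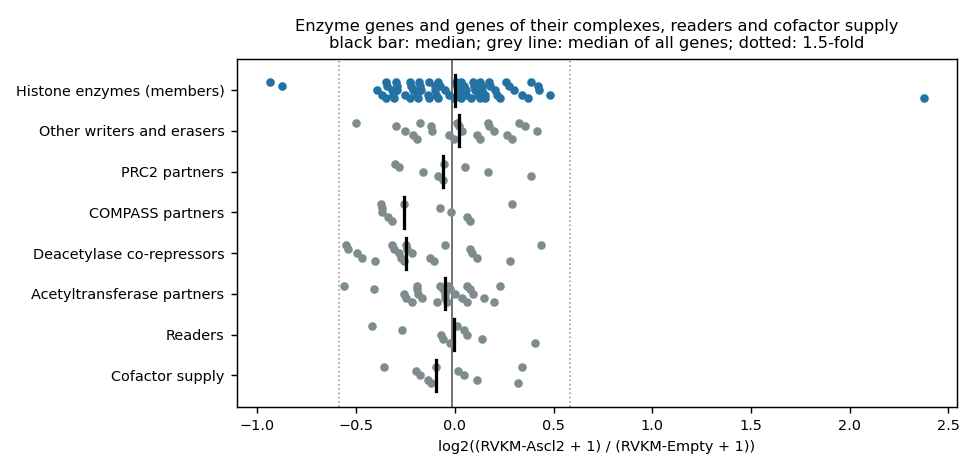
Log2 ratio of RVKM-Ascl2 over RVKM-Empty for the kept enzyme genes (top row, blue points) and for the genes of the 7 further lists (grey points), with medians as black bars, the median of all kept genes as a grey line and 1.5-fold as dotted lines. The medians of the COMPASS partners (the H3K4 methyltransferase complexes) and of the deacetylase co-repressors lie at −0.26 and −0.25. No grey point is past 1.5-fold, where 5.01% of all kept genes were higher and 4.31% lower.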

How the data were processed

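RNA abundance was analysed in 1 RVKM-Ascl2 and 1 RVKM-Empty library of cultured mouse B cells, grouped by sample title. Per gene the authors deposited a signal with its unit, quantifier and annotation not given in the sources used here. Per the submitters' processing notes, Trim Galore, Bowtie2, Picard, MACS2 and the build mm10 were used in the series, with no version and no word on which served the RNA. No value was 0, and depth is unknown.

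The log2 ratio was computed with a pseudocount of 1 over the 12283 of 13792 genes with at least 1 in at least 1 library. With 1 library per group no test was run. Members, classes and lists were chosen with earlier results of these data known. All members could be named. Other genes named were Ascl2, markers, the listed neighbours of members past 1.5-fold, and the 3 largest ratios of a list. A reader gene and a B cell marker gene are not reported here. Spans and promoters came from RefSeq on GRCm38.p6, the assembly called mm10, matched by symbol or synonym for 12968 genes and for 72 of 73 members. In that annotation 10 members overlap another listed gene (among them Setd6 with Cnot1 and Kdm1a with Luzp1), and their reads may not be separated.

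Alternatives were a pseudocount of 0.1 or 5, a filter of 5 or none, 2 rescalings, and subtraction of a running median (501 genes) along span or level. Steps were tested on simulated data. Python 3.11.15, numpy 2.4.6, pandas 2.3.3, scipy 1.17.1 and matplotlib 3.10.9 were used.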

Additional observations from a re-analysis of the deposited data

How the results depend on the processing

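The count of genes past 2-fold higher (1, Kdm4c) was the same under all 8 alternatives tried. The share of all genes that much higher lay between 0.839% and 3.01% in them. The count at least 2-fold lower was 0, and 2 with a pseudocount of 0.1 (Setd4 and Kdm8), where 1.79% of all genes were that much lower. The count at least 1.5-fold lower was 2, beside 4.31% of all genes. It was 0 with a pseudocount of 5 (beside 1.55%) or a filter of 5 (beside 3.84%), since both genes are under 5 in both libraries. That filter also took the median of the other SET domain genes to 0.019 from 3 genes, against −0.14 from 4, by leaving out Setd4. The other class medians moved by less than 0.1. Scaling the libraries to the same sum without immunoglobulin genes and Pcdh15 multiplied the RVKM-Ascl2 values by 1.07 and took the median of all members to 0.073, and with it the medians of the class IIa deacetylases (0.031) and the sirtuins (0.052) changed sign. Removing the span trend changed the sign of 6 members, each with a ratio between −0.13 and 0.031 before, and of the medians of the amine oxidases (−0.0053), acetyltransferases (−0.0035) and sirtuins (0.0027). The acetyltransferase median was also below 0 with a filter of 5 (−0.034) and with the level trend removed (−0.0061). No paired analysis was possible because each group is 1 library. With depth unknown and no replicates, no difference of any size can be set against an error.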

Other observations

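The proteins that read histone marks and the enzymes that supply methyl and acetyl donors were also close to level. The 10 readers had a median log2 ratio of −0.0062, and 5 were above 0. Cbx5, which binds methylated H3K9, was 42.1 in RVKM-Ascl2 and 31.5 in RVKM-Empty. The Polycomb reader Cbx8 was 2.27 in RVKM-Ascl2 and 3.38 in RVKM-Empty, and Brd3, which binds acetylated histones, was 24.6 in RVKM-Ascl2 and 29.8 in RVKM-Empty. Of 11 genes of cofactor supply, 5 had a ratio above 0, with a median of −0.098. Nampt, which makes the NAD precursor that sirtuins depend on, was 50.6 in RVKM-Ascl2 and 40.4 in RVKM-Empty. Ahcy, which clears the product that inhibits methyltransferases, was 66.5 in RVKM-Ascl2 and 85.5 in RVKM-Empty, and Mtr, the methionine synthase gene, was 8.81 in RVKM-Ascl2 and 6.75 in RVKM-Empty.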
